A study of Mus musculus with 2 samples.

Results

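Integrins, laminins and collagens, the receptors and the structural chains of the extracellular matrix, were examined in mouse embryonic stem cells (mESCs) grown with LIF or with LIF plus CHIR. The members were chosen by name alone, as the gene identifiers of the array that carry a numbered integrin α or β, laminin α, β or γ, or collagen α chain symbol. This gave 71 of 30774 identifiers, of which 21 were integrins, 11 laminins and 39 collagens. The labels name B6 mESCs of inner cell mass origin in serum medium, given either LIF alone or LIF with CHIR99021, for 12 h. LIF is the cytokine that activates Stat3, and CHIR is a GSK3 inhibitor that activates Wnt/β-catenin signaling. Both conditions share the strain, LIF and serum, and CHIR is the difference their titles state. The growth note, which is the same for both samples, names CHIR99021 as well, so whether the cells had met CHIR before the 12 h is not settled. Each condition was 1 RNA sample of 1 cell line on 1 Illumina beadchip, so the differences below have no replicate check and are given as ratios without a p-value. The labels and the study's own scheme name different mESC lines for this experiment.

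Integrins are receptors of 1 α and 1 β subunit that span the cell membrane and tie the matrix outside to the actin cytoskeleton inside. Laminins are trimers of 1 α, 1 β and 1 γ chain that form the first sheet of a basement membrane, and type IV collagen forms the second network, whereas fibrillar collagens make up connective tissue. The epiblast that follows the inner cell mass rests on such a basement membrane, which early endoderm and the pluripotent cells themselves help to lay down.

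The deposited values are signal intensities on a linear scale, already background-subtracted, with a detection p-value that sets each signal against the negative control beads. The distributions of both arrays were nearly equal, with a 75th percentile of 153 in LIF and 154 with CHIR. Axin2, a feedback target of Wnt/β-catenin signaling, had a signal of 314 in LIF and 1178 with CHIR, and Sp5, another target, had 48.8 and 809.5, so both were higher in the sample labelled with CHIR. Of 10 pluripotency markers, 8 were detected on both arrays, beside 27.9% of all identifiers, Pou5f1 among them with signals of 12346 and 11309. Sox2 (441 in LIF and 400 with CHIR) and Tdgf1 (26.6 and 14.6) were not detected. Of the 8, 4 were higher and 4 lower with CHIR, with log2 ratios from -0.49 to 0.58. A member counted as detected with a detection p-value under 0.01. The precision is limited by the number of arrays. As a yardstick, the range that held the middle 95% of log2 ratios was taken over all identifiers detected on both arrays in the same band of brightness. It compares LIF with LIF plus CHIR, so it holds responses to CHIR as well as measurement error, and is not a measure of precision. That range ran from -0.65 to 0.56 where the brighter signal lay under 100, from -0.72 to 0.70 between 100 and 300, from -0.62 to 0.60 between 300 and 1000, and from -0.41 to 0.42 at 1000 or more.

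The members were detected about as often as all identifiers, and nearly all of the detected ones had signals within 1.5-fold of each other on both arrays. In LIF 20 of the 71 members were detected, beside 29.3% of all identifiers, and with CHIR 22, beside 29.8%. These 22 include all that were detected on either array and are 31.0% of the members, beside 31.2% of all identifiers, and 20 were detected on both arrays, beside 27.9%. Laminins were detected most often (6 of 11, or 54.5%), then integrins (9 of 21, or 42.9%), then collagens (7 of 39, or 17.9%). The other 49 members were detected on neither array. Of these, 25 had signals below 0 on both arrays. In RNA from a whole culture, a low signal can come from few cells, from little RNA per cell or from a probe that reports the gene poorly. These cannot be told apart.

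**Figure D1:**
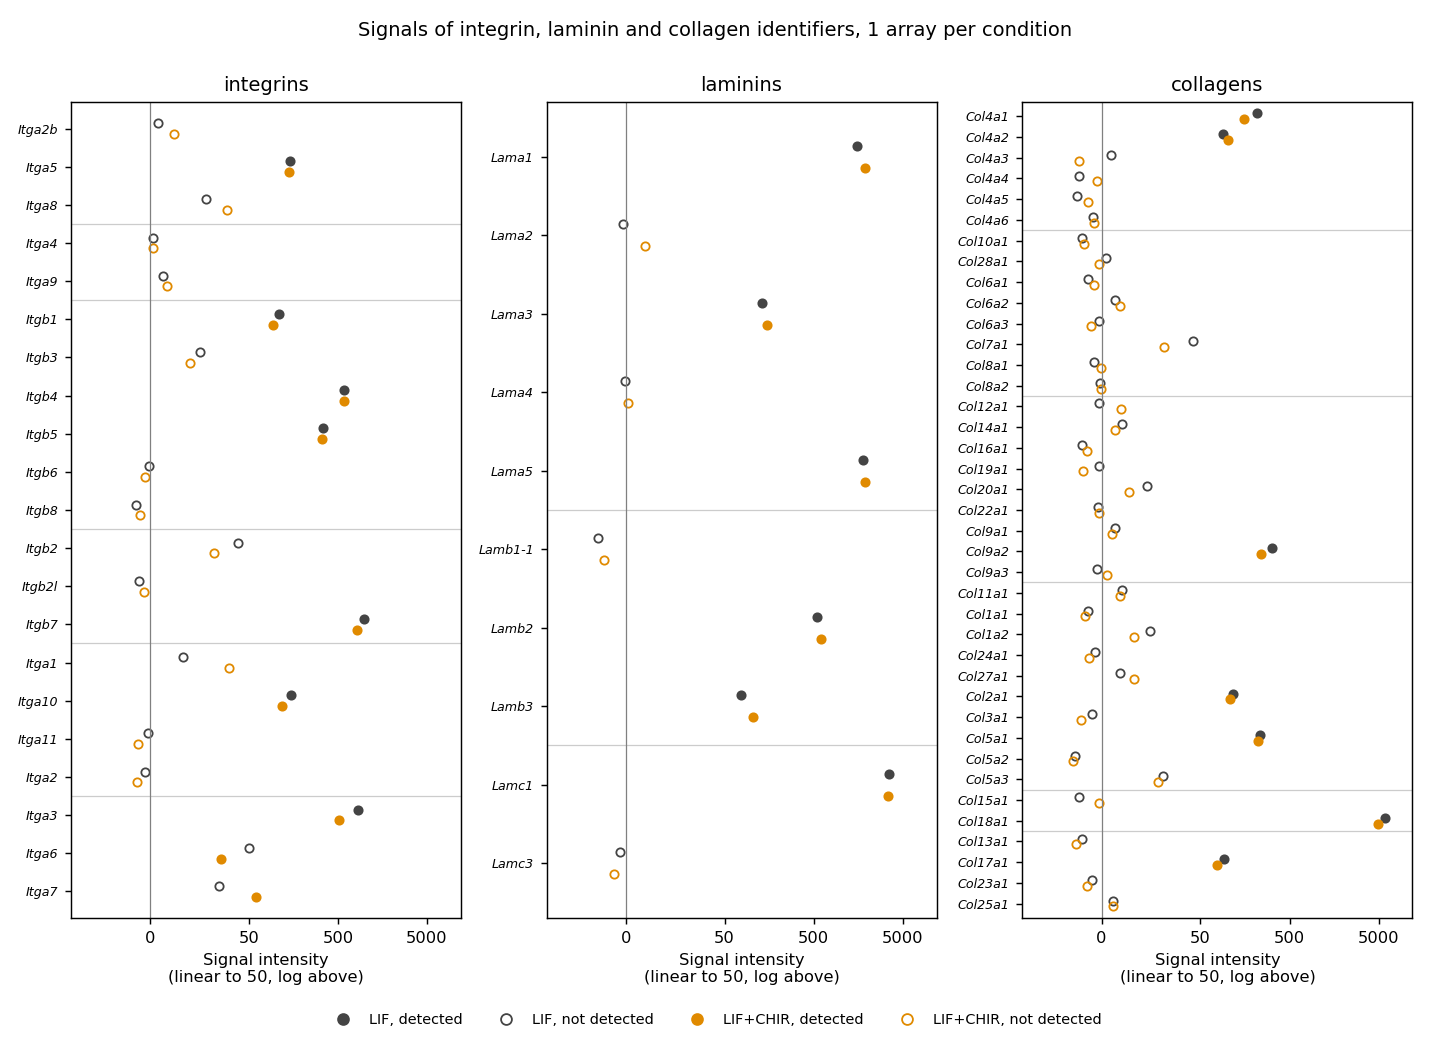
Signal intensity (x axis, linear to 50 and logarithmic above) of 70 of the identifiers in LIF (grey) and LIF plus CHIR (orange), with filled points for detected signals, open points for undetected ones, and horizontal lines between subfamilies. Detected signals were found for 9 integrins, 6 laminins and 7 collagens, and most collagens lay near 0 on both arrays.

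Itga3 was the single member that passed the limit of 1.5-fold, and it was lower with CHIR. No member was counted as at least 1.5-fold higher. Itga7 was not detected in LIF and has only a lower bound of 1.15-fold, so whether it passed 1.5-fold is not settled. Over all 9615 identifiers detected on at least 1 array, 3.16% were at least 1.5-fold lower and 3.0% at least 1.5-fold higher, so 1 lower and 0 higher among 22 members is a share near the background. Over the 20 members detected on both arrays the log2 ratios ran from -0.71 to 0.46. Of these 20, 13 were lower with CHIR and 7 higher by any amount, with 50.7% lower and 49.3% higher over all 8580 identifiers detected on both arrays. The families leaned different ways: 6 of 7 integrins and 6 of 7 collagens were lower, whereas 5 of 6 laminins were higher. Their median log2 ratios were -0.23 for integrins, -0.24 for collagens and 0.17 for laminins, beside 0.00 over all identifiers. These leanings were small, and 19 of the 20 members lay inside the range of their brightness band. Itga3 lay outside it, as 5.07% of all identifiers in its band did.

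**Figure D2:**
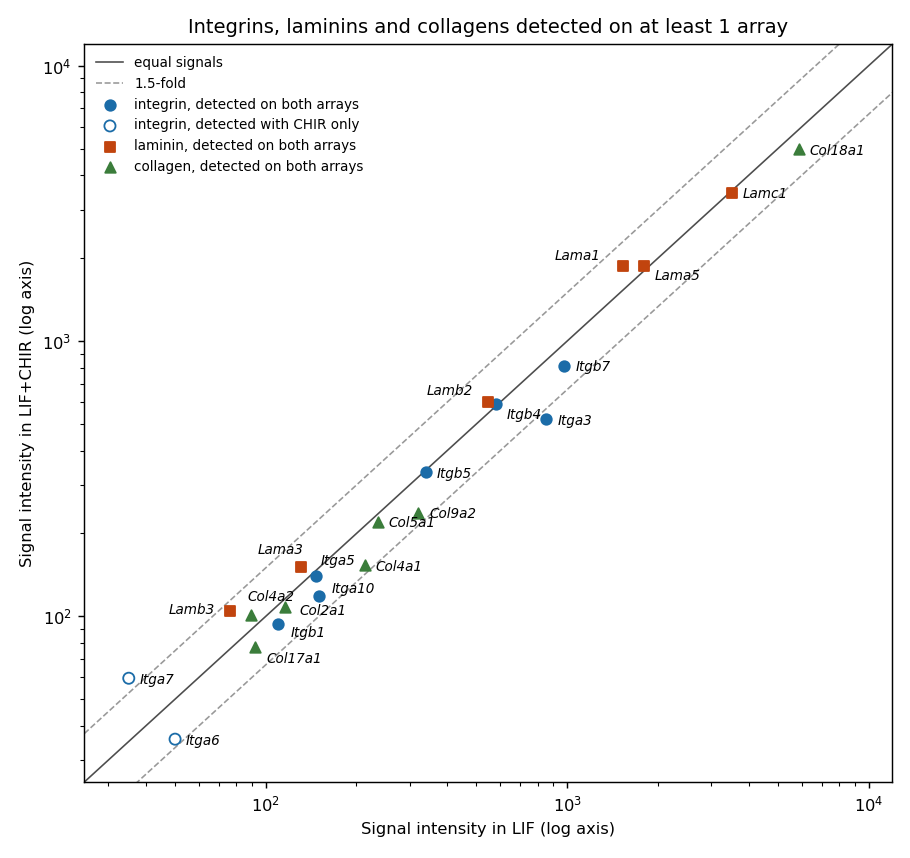
Signal intensity in LIF (x axis) against LIF plus CHIR (y axis), both logarithmic, for the 22 members detected on at least 1 array, with the solid line at equal signals and dashed lines at 1.5-fold. Itga3 lies below the lower dashed line, and Itga7 lies above the upper one with a LIF signal that was not detected.

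Of the 3 laminin-binding integrin α subunits, 1 was detected in LIF and 3 with CHIR, beside 29.3% and 29.8% of all identifiers. Itga3 (Entrez gene 16400, placed by the array annotation on chromosome 11 in band 11qD) encodes α3, which pairs with β1 and binds laminins rich in the α5 or α3 chain. Its signal was 853 in LIF and 521 with CHIR. This was a 1.64-fold lower signal, a log2 ratio of -0.71, against a lower edge of -0.62 for its band. In that band 2.61% of tested identifiers were at least 1.5-fold lower. With normexp background correction fitted on all identifiers the log2 ratio was -0.35, which no longer passes 1.5-fold.

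The stretch of 250 bases before the start of Itga3 is shown because this was the member past the limit. It comes from RefSeq (GRCm38.p6, chr11:95076715-95076964, minus strand) and is written 5′ to 3′, with capitals marking GGGCGG, the GC box that Sp and Klf factors recognise, on either strand.
Itga3: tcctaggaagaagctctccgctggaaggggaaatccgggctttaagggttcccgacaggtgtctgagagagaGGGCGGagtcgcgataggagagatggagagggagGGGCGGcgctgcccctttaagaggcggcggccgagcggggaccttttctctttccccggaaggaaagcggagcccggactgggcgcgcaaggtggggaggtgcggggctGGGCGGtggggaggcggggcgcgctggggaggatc
It holds the GC box 3 times and no match to CTTTGAT, the letters of the TCF/LEF consensus, on either strand. Among the 27025 RefSeq stretches of the same length, 1 for each gene, 33% hold the GC box and 3.26% hold CTTTGAT. Of the 52 members that the RefSeq table lists, 24 hold the GC box (46.2%) and 1 holds CTTTGAT (1.92%). Of the 15 among them detected on both arrays, 9 hold the GC box (60.0%) and 1 holds CTTTGAT. The share among all genes detected here was not computed, so the 60.0% has no like background. A match is a description of letters, and binding was not measured here.

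Itga6, whose subunit α6 joins β1 or β4 as a laminin receptor, had signals of 50.04 in LIF and 35.8 with CHIR. Its detection p-values were 0.026 and 0.00915, so the dimmer signal was the detected one. Judged from its p-values, Itga6 pooled several probes. For such identifiers the mean signal and the p-value need not rank alike, and no ratio is given here. Itga7, a laminin receptor subunit best known from muscle, was measured by 1 probe, with signals of 35.1 and 59.6. It was not detected in LIF (detection p-value 0.0449) and was detected with CHIR (0.00321). Set against the lowest detected signal of such a probe in LIF, 51.9, it was at least 1.15-fold higher with CHIR. Without that minimum the ratio of its signals passed 1.5-fold (log2 0.76).

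Of the collagen-binding α subunits, Itga10, known from cartilage, was detected, with 151 in LIF and 118 with CHIR (log2 ratio -0.35). Itga1, Itga2 and Itga11 were not, with signals between -6.61 and 40.0. Among α subunits that bind the RGD motif of fibronectin and related proteins, Itga5, the classical fibronectin receptor subunit, had 146 and 140.1, a log2 ratio of -0.06. Itga8 and Itga2b were not detected, and neither were Itga4 and Itga9, which serve mainly in leukocytes and other migrating cells.

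The 4 detected β subunits had log2 ratios between -0.27 and 0.02. Itgb1, the partner of most α subunits, had 110 in LIF and 93.5 with CHIR (log2 ratio -0.23). Itgb4, the α6 partner that anchors hemidesmosomes, had 580.0 and 589, the closest to equal of the 20 members (0.02). Itgb5, a partner of αv, had 340.0 and 333 (-0.03). Itgb7, a leukocyte subunit that pairs with α4 or αE, was detected on both arrays with 979 and 811 (-0.27). All 4 lay inside the range of their bands. The remaining β subunits, Itgb2, Itgb2l, Itgb3, Itgb6 and Itgb8, were not detected, with Itgb2 the nearest to detection at a signal of 44.7 in LIF (detection p-value 0.0214).

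The laminin chains detected in mESCs included 3 α, 2 β and 1 γ chain. Lama1 (Entrez gene 16772, chromosome 17, band 17qE1.1), the α chain of the earliest embryonic laminin, had a signal of 1538 in LIF and 1879 with CHIR. It was 1.22-fold higher, with a log2 ratio of 0.29 inside its band's range of -0.41 to 0.42. Lama5, the α chain of most adult basement membranes, had 1801 and 1878 (log2 ratio 0.06). Lama3, an epithelial α chain, had 131 and 151 (0.21).

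Lamb3 (Entrez gene 16780, chromosome 1, band 1qH6), an epithelial β chain, had the largest ratio among the laminins. Its signal was 76.1 in LIF and 105 with CHIR, which is 1.38-fold higher (log2 ratio 0.46), inside the range for signals of 100 to 300. Lamb2 had 548 and 598 (0.13). Lamb1-1, the array's name for the β chain that partners α1 and α5 in most trimers, was measured by 1 probe, whose signals were -14.2 and -10.7, at background on both arrays. With 1 probe, little RNA of the gene and a probe that reports it poorly cannot be told apart.

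Lamc1, the γ chain shared by most laminins, had 3515 and 3453, nearly the same on both arrays (log2 ratio -0.03). Lama2, Lama4 and Lamc3 were undetected, with signals between -6.05 and 9.78.

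**Figure D3:**
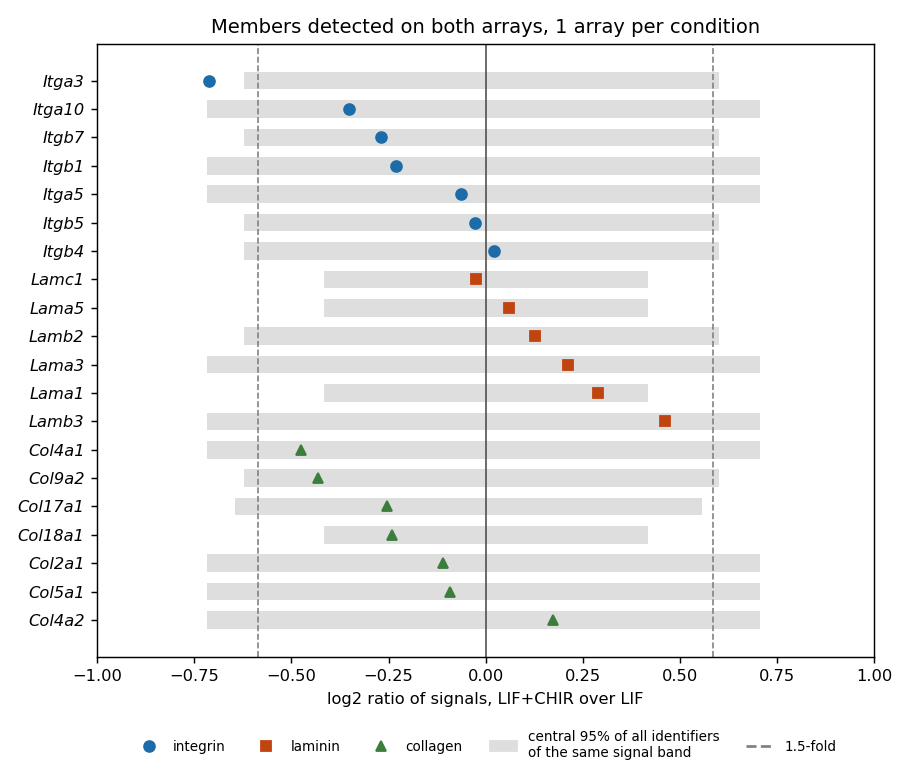
Log2 ratio of signals, LIF plus CHIR over LIF (x axis), for the 20 members detected on both arrays, with a grey bar for the range of the middle 95% of all identifiers in the same brightness band and dashed lines at 1.5-fold. Itga3 at -0.71 is outside its bar, and the other 19 points are inside theirs.

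Collagens of the fibroblast matrix were at background. Col1a1, Col1a2 and Col3a1, the chains of the main connective tissue fibrils, had signals between -10.5 and 24.7 and were not detected on either array, like the type VI chains Col6a1, Col6a2 and Col6a3 (-6.78 to 9.22). Of 10 fibrillar chains 2 were detected. Col5a1, which helps to start fibrils, had 235 and 221 (log2 ratio -0.09). Col2a1, the chain of cartilage fibrils, had 116 and 108 (-0.11).

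Type IV collagen was detected through its chief pair of chains. Col4a1 (Entrez gene 12826) and Col4a2 (Entrez gene 12827) lie head to head on chromosome 8 in band 8qA1.1 and their products assemble together. Col4a1 had a signal of 213 in LIF and 154 with CHIR, 1.39-fold lower (log2 ratio -0.47). Col4a2 had 89.3 and 101, 1.13-fold higher (0.17). The signals of the pair thus differed in opposite directions, each inside the range of its band of -0.72 to 0.70, and the difference between them was not tested. The RefSeq starts of both genes are 21 bases apart on opposite strands (GRCm38.p6, chr8:11312805-11312826). The stretch from one start to the other, printed on the plus strand with a GC box in capitals, lies at the beginning of both transcripts, which overlap by these 22 bases.
Col4a2 to Col4a1: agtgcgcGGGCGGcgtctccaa
The other type IV chains, Col4a3, Col4a4, Col4a5 and Col4a6, were not detected, with signals between -12.3 and 4.84.

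Among the remaining collagens, Col18a1 (Entrez gene 12822, chromosome 10, band 10qC1), the basement membrane collagen that carries endostatin, had a signal of 5869.65 in LIF and 4968 with CHIR. This is a 1.18-fold lower signal (log2 ratio -0.24), inside the range of -0.41 to 0.42 for its band. Col17a1, a transmembrane collagen of hemidesmosomes, had 92.3 and 77.5 (-0.25).

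Col9a2 (Entrez gene 12840, chromosome 4, band 4qD2.2), a fibril-associated chain of cartilage, had 321 in LIF and 238 with CHIR, 1.35-fold lower (log2 ratio -0.43). It was the single member in the RefSeq table whose upstream stretch holds CTTTGAT, and that stretch is shown for this reason (GRCm38.p6, chr4:121039316-121039565, plus strand), with capitals for CTTTGAT and for the GC box on either strand, which do not overlap.
Col9a2: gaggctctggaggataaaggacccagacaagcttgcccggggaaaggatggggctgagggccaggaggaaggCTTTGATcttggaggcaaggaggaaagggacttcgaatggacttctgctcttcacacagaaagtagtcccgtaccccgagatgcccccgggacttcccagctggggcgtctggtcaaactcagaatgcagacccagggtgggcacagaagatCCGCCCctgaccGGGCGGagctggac
Its signal was lower with CHIR, an activator of the pathway whose factors recognise CTTTGAT, and whether the letters bear on it was not tested. The other 32 collagens were undetected. The highest signal among them was 46.5 for Col7a1 in LIF (detection p-value 0.0189), the collagen of anchoring fibrils.

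Markers of other cell types were detected at shares below or above the 31.2% of all identifiers detected on at least 1 array. The shares were 8.33% for fibroblasts, 25% for endoderm, 25% for endothelium and blood, and 50% for mesoderm and primitive streak. Of 12 fibroblast markers 1 was detected (Fbln1, also a matrix gene, 275 in LIF and 441 with CHIR), and Lum, Dcn, Postn, Pdgfrb, Twist2 and Fap had signals below 0 on both arrays. Thy1, which pooled several probes, had bright signals of 222 and 225 without being detected (detection p-values 0.354 and 0.302). The summed signal of that list, with values below 0 taken as 0, was 526.8 in LIF and 702.4 with CHIR. Fbln1 and the undetected Thy1 made up most of both sums, and Thy1 was nearly equal on both arrays. Of 12 markers of primitive and parietal endoderm, the cells that secrete much laminin and type IV collagen in the embryo, 3 were detected on both arrays (Amn, Sox7 and Hnf4a), whereas Gata4, Gata6, Sox17 and Foxa2 were not. Their summed signal was 374.5 and 336.7. Of 8 endothelial and blood markers 2 were detected, Pecam1 (337 in LIF and 297 with CHIR) and Tek (587 and 487). These 2 genes made up most of the summed signal of 975.7 and 808.7. Of 8 mesoderm and primitive streak markers, 2 were detected in LIF and 4 with CHIR, and their summed signal was 2213 and 3861, of which Lefty2 made up 2061 and 3172. T, the brachyury gene, was detected with CHIR alone, at 394. Whether cells of these types were present was not tested, nor was their part in the values of the laminins, integrins and collagens.

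Among 4 lists of genes that work with these families, each held 1 to 3 genes past 1.5-fold. Of 21 adaptors that tie integrins to actin, 9 were detected, 2 of them at least 1.5-fold higher and 1 lower, beside the 3.0% and 3.16% of all identifiers. Zyx, the focal adhesion protein zyxin, had 3660 in LIF and 5779 with CHIR, 1.58-fold higher (log2 ratio 0.66). Src, the kinase at adhesions, was detected with CHIR alone at 286. Its LIF signal of 186 was not detected (detection p-value 0.054). The ratio of these signals was 1.54, and as Src pooled several probes, whose p-value and mean signal need not rank alike, it is neither a bound nor a ratio of detected signals. Bcar1, the adaptor p130Cas, had 624 and 343 and was 1.82-fold lower (log2 ratio -0.86). Tns3, a tensin, and Actn4, an actinin that crosslinks actin, were the other bright genes of the list, with log2 ratios of 0.20 and -0.17. Signals give no order of abundance, since probes differ in brightness.

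The collagen processing enzymes leaned upward while the collagen chains leaned downward, both by small amounts. The enzyme list was chosen with earlier results of these data known. Of 24 such genes, 12 were detected on both arrays, and 11 of these were higher with CHIR, beside 49.3% of all identifiers detected on both arrays, with a median log2 ratio of 0.16 beside 0.00 over all identifiers. At least 1.5-fold higher were 3 of the 15 detected on at least 1 array, beside 3.0% of all identifiers, and 0 were lower. Serpinh1, the chaperone of the collagen triple helix, had 844 in LIF and 1345 with CHIR, 1.59-fold higher (log2 ratio 0.67). Pcolce2, which aids removal of the collagen propeptide, had 489 and 874, 1.79-fold higher (0.84). Both lay outside the range of their bands, whereas the other enzymes detected on both arrays lay inside theirs, as did all the detected collagen chains. Loxl4, a lysyl oxidase that crosslinks collagen, was detected with CHIR alone, with signals of 28.9 and 45.3. It pooled several probes too, and the ratio of its signals, 1.57, rests on an undetected LIF signal. The brightest genes of the list, P4hb, Ppib and Crtap, which act on the folding and hydroxylation of collagen, had log2 ratios of 0.16, 0.13 and 0.27.

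Of 20 other matrix proteins and matrix receptors, 12 were detected, beside 31.2% of all identifiers, and 1 of these, Fbln1, passed the limit at 1.61-fold higher (log2 ratio 0.68), beside 3.0%. The basement membrane components Agrn (11762 and 10614, -0.15), Nid2 (3345 and 3389, 0.02) and Hspg2 (2973 and 2948, -0.01) did not. Of 14 matrix proteases and their inhibitors 5 were detected, 1 of them at least 1.5-fold higher and 1 lower, beside 3.0% and 3.16% of all identifiers. Mmp15, a membrane-bound protease, had 52.0 and 83.4, 1.6-fold higher (0.68), and Mmp11, a secreted one, had 589.6 in LIF and 373 with CHIR, 1.58-fold lower (-0.66). Mmp2, which cleaves type IV collagen, had 285 and 194 (-0.55), and Timp1, an inhibitor, 2776 and 3121 (0.17).

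**Figure D4:**
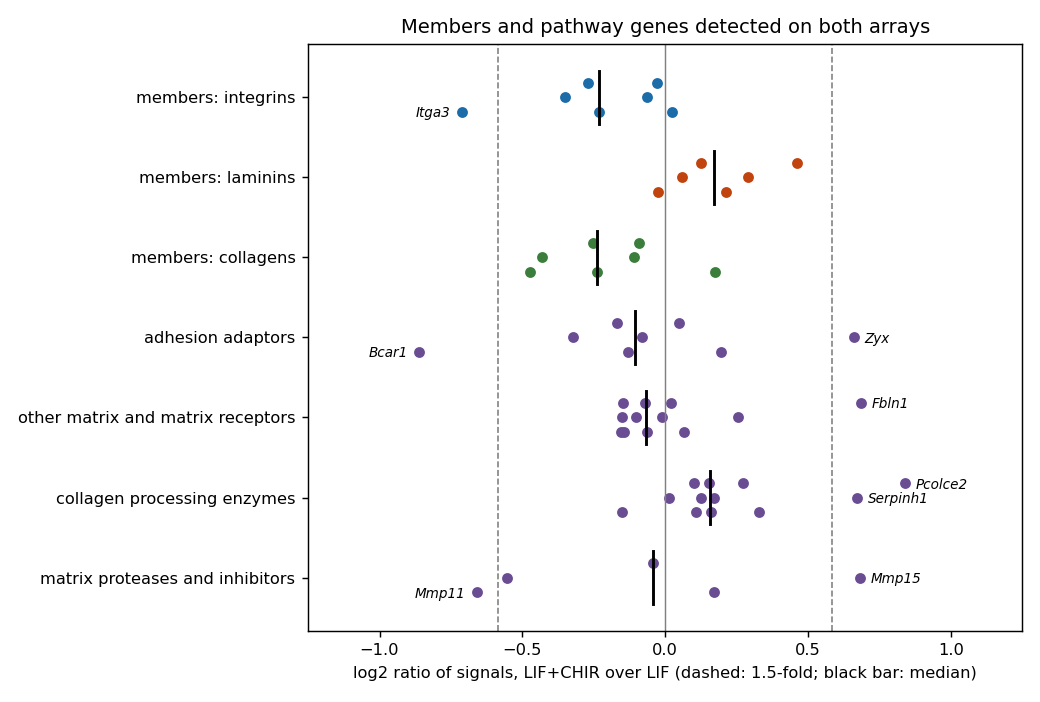
Log2 ratio of signals, LIF plus CHIR over LIF (x axis), for the members by family and for 4 lists of partner genes, each point 1 gene detected on both arrays, the black bar the median and the dashed lines 1.5-fold. Zyx, Fbln1, Pcolce2, Serpinh1 and Mmp15 lie above 1.5-fold, and Itga3, Bcar1 and Mmp11 lie below.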

How the data were processed

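Illumina mouse beadchips were used for RNA of mESCs, 1 for LIF and 1 for LIF plus CHIR, and samples were grouped by their titles. The authors deposited linear signal intensity with background subtracted. Both arrays had nearly equal distributions, and the normalization is not given in the sources used here. Each signal has a detection p-value, also deposited. A shorter table of 11702 identifiers repeats the longer one (0 shared identifiers differed).

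Members were matched by symbol. Detection p-values that were not whole multiples of 1/936 (936 being the presumed count of negative controls) marked identifiers with several probes (7510). Where both p-values were 0 (6582), the number of probes could not be told. Log2 ratios were computed from the deposited signals of identifiers detected (p under 0.01) on at least 1 array, the limit being 1.5-fold. An undetected signal was raised to the lowest detected signal of its array among identifiers of the same kind (51.9 in LIF and 47.1 in LIF plus CHIR for 1 probe, 15.1 and 14.8 for several), and a ratio is a bound where the signal was raised. Undetected signals already above that minimum (Src and Loxl4 in LIF, for example) were kept. No count model and no test was used. The ratio step was tested on simulated data with planted changes larger than 1.5-fold and little noise. That checks the calculation, and not how well a 1.5-fold difference stands out in these data.

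Named genes were all members, pathway genes past 1.5-fold, the 3 brightest detected genes of each pathway list, and Axin2 and Sp5. The marker genes were named after their values were seen. For 1 member, counted in the totals, no values are reported here. Members were taken by symbol, without reference to their values, but the choice of these families and of the lists was made with earlier results of these data known. Of 134 list entries all 134 were matched, by symbol or Entrez gene number. Promoter sequences came from RefSeq (GRCm38.p6), which listed 52 of the 71 members, taking the start farthest upstream. Python 3.11.15, pandas 2.3.3, numpy 2.4.6, matplotlib 3.10.9, R 4.3.3 and limma 3.58.1 were used. Alternatives were other detection limits, normalizations, background corrections and minimum signals, a limit of 2-fold, and the shorter table.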

Additional observations from a re-analysis of the deposited data

How the results depend on the processing

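No paired analysis was possible because LIF and LIF plus CHIR were measured on a single array each, without a test, and for the same reason no replicate could be left out. A detection p-value under 0.05, which detected 27 members in place of 22, 1 minimum signal per array and no minimum signal each put 1 member at least 1.5-fold higher in place of 0. In each case this was Itga7, whose log2 ratio moved from 0.20 to 0.76 because its LIF signal was not raised. Of members at least 1.5-fold lower there were 0 at a limit of 2-fold and 0 after normexp background correction fitted on all identifiers, in place of 1. That correction, whose fitted background SD was 588 in LIF against 15.4 when fitted without identifiers of several probes, took Itga3 from -0.71 to -0.35. Over all identifiers, 288 were higher and 304 lower by 1.5-fold, which became 479 and 519 with the looser detection limit, 59 and 47 with that normexp correction, and 78 and 54 at 2-fold. None of the 22 members changed direction under any of the alternatives run. For members detected on both arrays, however, only the normalizations and background corrections could change a ratio. The detection limits, the minimum signals, the limit of 2-fold and the shorter table leave their ratios as they are. The family medians moved toward 0 under normexp fitted on all identifiers, to -0.02 for integrins, 0.04 for laminins and -0.01 for collagens, and kept within 0.1 of their values under the others. Dim signals held more of the large ratios: 5.75% of identifiers with a brighter signal under 100 and 4.81% of those between 100 and 300 were at least 1.5-fold lower, against 2.61% between 300 and 1000 and 1.01% at 1000 or more.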

Other observations

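The integrin α subunits with letters in place of numbers fall outside the members and were read after the members' values were seen. Itgae, which pairs with β7, was detected with CHIR alone, with signals of 148 in LIF and 187 with CHIR. It pooled several probes, and the ratio of its signals, 1.26, rests on an undetected LIF signal. Itgal, a leukocyte subunit, was detected on both arrays with 152 and 153. Itgav, the partner of β5, had 19 and 19.7 and was not detected, and neither were Itgad, Itgam and Itgax.

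Through RefSeq synonyms, 3 further identifiers on the array belong to members, and none was detected. They are E130010M05Rik for Col4a4 (-17.2 in LIF and -11.9 in LIF plus CHIR), 6720458D17Rik for Itga9 (39.7 and 30.7) and 4831415H04Rik for Itgb6 (-16.3 and -13.4). The members they belong to were undetected as well.

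Several partners of integrins had bright signals without being detected, such as Fermt2 (965 in LIF and 1062 in LIF plus CHIR, detection p-values 0.258 and 0.0769) and Ilk (690.1 and 701, 0.0541 and 0.0315), which were picked after their values were seen. Both pooled several probes. Over all identifiers of that kind, 1506 were undetected in LIF with a signal of at least 51.9, the lowest detected signal of a single probe.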
